A study of Arabidopsis thaliana with 15 samples.

Results

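The 41 nuclear photosystem and light-harvesting genes of Arabidopsis thaliana were followed in rosettes of 5 lines that differ in the transcription factor NAC052. They were found in the deposited count table by their gene identifiers, 41 of 32833 listed genes, and comprise 14 LHCB, 4 LHCA, 12 PSA and 11 PSB genes. Every line had 3 biological replicates and was sampled as complete rosettes of 28-day-old soil-grown plants. The reference line is Col-0 with a reporter in which the GLDPA promoter of Flaveria trinervia, active in the bundle sheath, drives a chloroplast-targeted GFP, and all the other lines carry this reporter too. In the activation-tagged line the GLDT promoter of F. trinervia sits inside the NAC052 coding sequence. The CRISPR/Cas line has an inserted base in NAC052 that shifts the reading frame. The GLDT::NAC052 line expresses the whole NAC052 reading frame from the GLDT promoter at a random insertion site, the GLDT::5'truncatedNAC052 line a 5' shortened one, and both keep the endogenous gene. That promoter acts around the veins, whereas the RNA came from the entire rosette, so fewer cells of a type and less RNA per cell cannot be told apart. Whether the sequenced plants of a GLDT line share an insertion is not given in the sources used here. The study asked which genes respond to the misplaced or missing NAC052.

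Light energy for photosynthesis is collected by chlorophyll-binding antenna proteins and passed to the reaction centres of photosystem II and photosystem I. The LHCB genes encode the antenna of photosystem II, of which LHCB1, LHCB2 and LHCB3 form the major trimers and LHCB4, LHCB5 and LHCB6 the minor proteins between the trimers and the core. The LHCA genes encode the antenna belt of photosystem I. The core proteins of both photosystems are made in the chloroplast, and the nucleus supplies peripheral PSA and PSB subunits, among them the docking sites for the electron carriers and the proteins that shield the oxygen-evolving manganese cluster. Transcripts of these nuclear genes belong to the most abundant in green leaves and generally rise in light and with chloroplast development.

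Each library held between 28074380 and 38579309 counts, with a median of 36691617. The 41 genes had between 662 and 1158805 counts in a library, and all 41 were among the 19663 genes that passed the filter on low counts. By the column names, the reference and activation-tagged libraries were run on lane 1 (6 libraries) and the other lines on lane 8 (9 libraries), so that for the CRISPR/Cas and both GLDT lines the lane and the line cannot be told apart in comparisons with the reference line. NAC052 itself was at 19.5 to 20.6 CPM (counts per 1e6 counts of a library, after TMM scaling of the library sizes) in the reference line, 61.7 to 80.0 CPM in the activation-tagged line and 20.1 to 22.6 CPM in the CRISPR/Cas line, whose frameshift need not change the count. Replicates 1, 2 and 3 had 25.01, 66.0 and 52.5 CPM for GLDT::5'truncatedNAC052 and 280, 27.2 and 165 CPM for GLDT::NAC052. Replicate 3 of both GLDT lines stood apart in the genes described here, with the lowest shares of its line. Values without it are given beside most counts, shares and genes of the GLDT::NAC052 line.

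The copies within a family are close in sequence, and which copy a read belongs to decides the values below. The 5 LHCB1 copies share 86.7 to 96.4% of their coding bases. No stretch of 150 bases, the read length, was shared between LHCB1.1 (AT1G29920), LHCB1.2 (AT1G29910), LHCB1.3 (AT1G29930) and LHCB1.4 (AT2G34430) and any other annotated transcript. The counts of the copies can therefore be separated wherever a whole read matched without error. A stretch of 30 coding bases was picked for its many differences between the copies, so it is not typical of the reading frame. The same bases of each copy (bases 28 to 57 of the reading frame, RefSeq annotation of TAIR10.1) are shown with capitals for bases that differ from LHCB1.3. They lie on chromosome 1 at chr1:10478098-10478127 (LHCB1.3, plus strand), chr1:10475836-10475865 (LHCB1.1, minus strand) and chr1:10473190-10473219 (LHCB1.2, minus strand), and on chromosome 2 at chr2:14524845-14524874 (LHCB1.4, plus strand) and chr2:14523457-14523486 (LHCB1.5, AT2G34420, minus strand).
LHCB1.3: tcccctgccttcgccggtaaggccgtcaag
LHCB1.1: tcccctgcTttcgccggAaaggcTgtGaaC
LHCB1.2: tcccctgccttcgccggAaaggcTgtGaaC
LHCB1.4: tcTcctgcTttGAccggAaaggccgtTaag
LHCB1.5: tcccctgccttcgccggAaaggcTgtGaag
LHCB1.4, with 6 differences in this window, and LHCB1.3 are shown because their values parted in the CRISPR/Cas line, as given below.

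Of the 41 genes, 34 shared less than 1% of their 150-base windows with another gene and 2 shared more than 50%. LHCB1.5 lies within a listed non-coding locus, AT2G08665, which had 0 counts in all 15 libraries. PSAG, a photosystem I subunit beside the LHCA belt, overlaps AT1G55673, which took between 0% and 20.7% of their summed counts depending on the library, and its own count is therefore uncertain. A smaller overlap concerns LHCB2.3 (AT3G27690, named LHCB2.4 in the deposited table), which shares 33.9% of its windows with its neighbour AT3G27700. That neighbour held at most 4.70% of the summed level. PSAE1 (AT4G28750) shares 18.2% of its windows with AT4G28755, which held at most 10.2% of their summed level.

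In the reference line the 41 genes held 23.5, 24.04 and 23.7% of all counts in replicates 1, 2 and 3. The share was 18.7, 17.0 and 18.5% in the CRISPR/Cas line, below every reference library, and the mean of 18.1% ± 0.907 (SD, n = 3) was 23.9% lower than the 23.7% ± 0.285 (SD, n = 3) of the reference line. In the GLDT::NAC052 line it was 22.3, 21.0 and 18.03%, also below every reference library. The GLDT::5'truncatedNAC052 libraries, with 23.7, 22.8 and 19.4%, overlapped the reference range. The activation-tagged libraries had 25.01, 24.1 and 25.2%, all above the reference line, although replicate 2 exceeded the highest reference library by little.

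**Figure D1:**
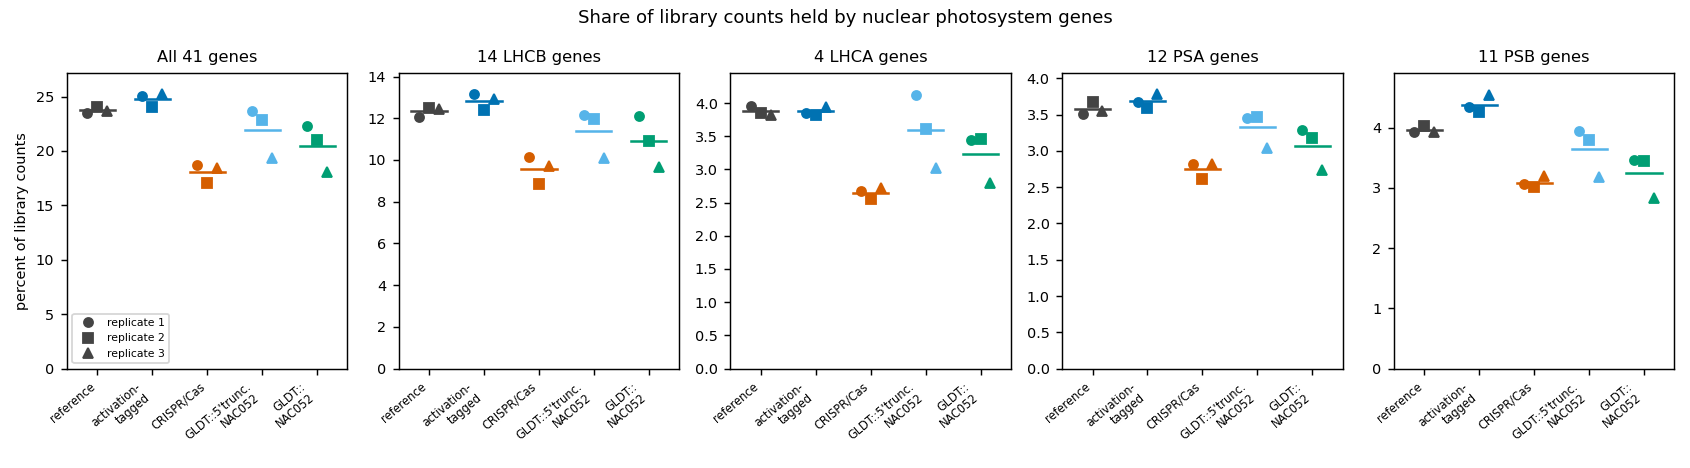
Share of each library's counts (percent, y axis) taken by the 14 LHCB, 4 LHCA, 12 PSA and 11 PSB genes in the 5 lines. Points are libraries, bars are means of 3, and the first panel sums all 41 genes; the CRISPR/Cas points lie below the reference points in all 4 groups.

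Of the 4 groups, LHCA differed most in the CRISPR/Cas line, with 2.65% ± 0.0874 (SD, n = 3) of all counts, 31.6% lower than the 3.87% ± 0.0721 (SD, n = 3) of the reference line. The other groups were 22.3% (LHCB), 23.2% (PSA) and 22.0% (PSB) lower in that line. Counts of LHCA genes per count of PSA genes were 0.951 to 0.975 in the 3 CRISPR/Cas libraries against 1.05 to 1.13 in the reference line, so that the antenna genes of photosystem I and the genes of its peripheral subunits differed in their proportion. The ratio of LHCB to LHCA counts was 3.47 to 3.79 against 3.06 to 3.26. In the activation-tagged line the PSB share was 4.33, 4.26 and 4.54% against 3.93, 4.02 and 3.92%, a mean 10.6% higher with no overlap, while the LHCA share was 3.87% in both lines. Over the TMM library size in place of the library total, the PSB share was 18.8% and the LHCA share 7.46% higher, both without overlap. In the GLDT::NAC052 line the mean share was 17.96% lower for PSB genes, 16.6% lower for LHCA genes and 14.3% lower for PSA genes, each below the reference range, and 11.6% lower for LHCB genes, with overlap. Over replicates 1 and 2 alone the same groups were 12.6, 10.9, 9.67 and 6.67% lower, and the LHCB libraries again overlapped the reference line. In the GLDT::5'truncatedNAC052 line the mean PSA share was 7.20% lower, below the reference range. The LHCB, LHCA and PSB shares were 7.53, 7.40 and 8.00% lower, with overlap. Over its replicates 1 and 2 alone the PSA share was 3.32% lower, still without overlap. These ratios and shares were described without a test over the genes.

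Per kilobase of exon, a scale on which genes can be set side by side, the reference levels ran from 39.7 to 20549.5 CPM per kb among LHCB genes (median 6676), from 5162 to 10032 among LHCA genes (median 7949), from 1432 to 6098 among PSA genes (median 2932) and from 724 to 8965 among PSB genes (median 3361). LHCB1.3 was the highest and LHCB4.3 (AT2G40100), a rare form of a minor antenna protein, the lowest of all 41.

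In the CRISPR/Cas line 34 of the 41 genes fell against the reference line and 0 rose (edgeR quasi-likelihood test, Benjamini-Hochberg adjusted p under 0.05 over 19663 genes). Over all tested genes 12.8% fell and 11% rose. The median log2 fold change of the 41 genes was -0.58, against 0.00 over all genes, and all 41 were negative, from -1.20 to -0.22. The falls covered 11 of 14 LHCB, 4 of 4 LHCA, 11 of 12 PSA and 8 of 11 PSB genes, with medians of -0.62, -0.71, -0.59 and -0.52. In 40 of the 41 genes the 3 CRISPR/Cas libraries lay below the 3 reference libraries, as they did for 23.5% of all tested genes. The genes that did not pass the test were LHCB1.1, LHCB1.2, LHCB1.3, PSAG, PSBO2, PSBS and PSBY. Without CRISPR/Cas replicate 2, the library with the lowest share, 25 genes fell.

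LHCB2.3 and LHCB1.4 were the genes of the set that fell below 0.5-fold, a size reached by 3.44% of all tested genes. LHCB2.3, a copy of a trimer protein that takes part in state transitions, was at 1736, 1859 and 1819.5 CPM in the reference libraries and at 822, 681 and 854 CPM in the CRISPR/Cas libraries. The groups did not overlap, and the log2 fold change was -1.20 ± 0.24 (SE, adjusted p = 0.0032, edgeR). LHCB1.4, which encodes the most abundant kind of antenna protein, had 12719, 14268 and 13287 CPM in the reference line and 7631, 5533 and 6537 CPM in the CRISPR/Cas line. Its log2 fold change was -1.03 ± 0.17 (SE, adjusted p = 0.00108, edgeR). LHCB1.3, at 24616, 26113 and 25099 CPM in the reference libraries, had 23622, 19276 and 22342 CPM in the CRISPR/Cas libraries. All 3 values were lower, yet the log2 fold change of -0.22 ± 0.13 (SE) did not pass the test (adjusted p = 0.24, edgeR).

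**Figure D2:**
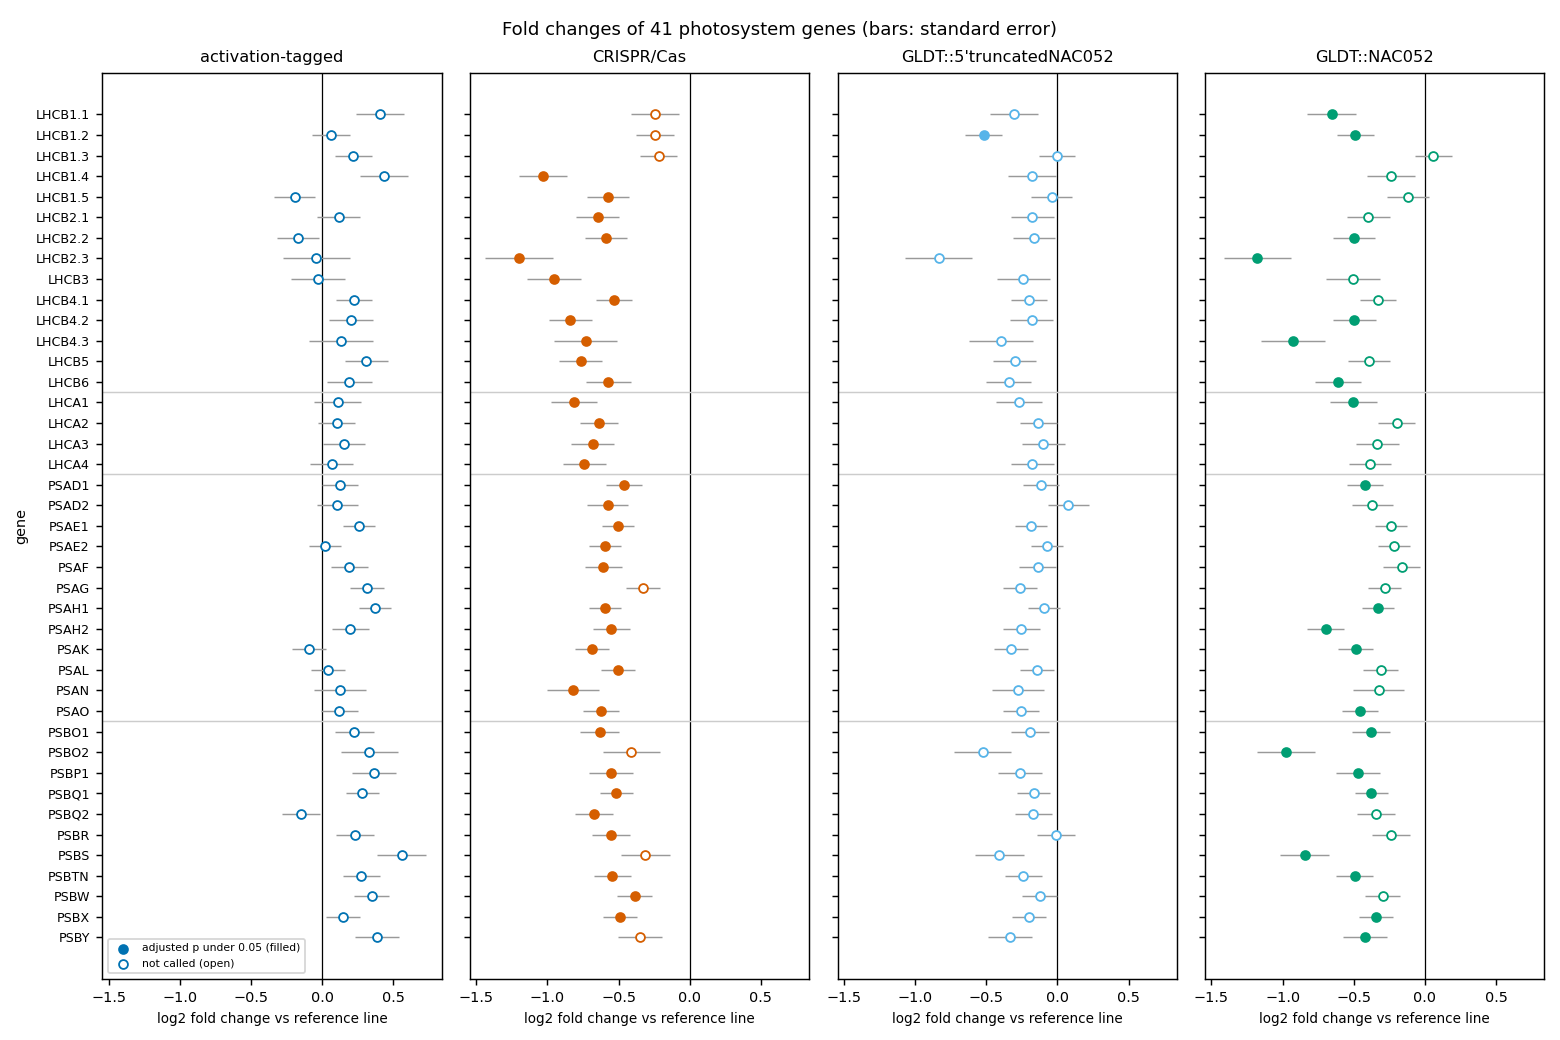
Log2 fold change against the reference line (x axis) of each of the 41 genes (y axis) in each line, one panel a line, grouped as LHCB, LHCA, PSA and PSB. Filled points passed an adjusted p of 0.05, and bars are standard errors; all 41 CRISPR/Cas values are negative and 34 are filled.

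The other antenna genes that passed the test in the CRISPR/Cas line fell by less than LHCB1.4. LHCA4 (AT3G47470), the photosystem I antenna gene with the highest CPM, although LHCA1 was higher per kilobase, was at 12252, 12282 and 12013 CPM in the reference line and at 7405, 6997 and 7456 CPM in the CRISPR/Cas line, a log2 fold change of -0.74 ± 0.15 (SE, adjusted p = 0.00357, edgeR). LHCB1.5 had 16459, 18376 and 18024 CPM against 12092, 10526 and 12876 CPM, a log2 fold change of -0.57 ± 0.15 (SE, adjusted p = 0.0122, edgeR). In both genes the lines did not overlap. LHCB3 (AT5G54270), the third protein of the trimers, changed by -0.95 (adjusted p = 0.00334, edgeR), LHCB5 by -0.77 and LHCB6, a minor antenna protein, by -0.57.

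Among the photosystem I subunits, PSAL (AT4G12800), which helps to form the docking face for mobile antenna, fell from 6261, 6769 and 6616 CPM to 4684, 4274 and 4878 CPM (log2 fold change -0.51 ± 0.12, SE, adjusted p = 0.00905, edgeR). PSAN (AT5G64040), a lumenal subunit at the plastocyanin docking site, had the lowest log2 fold change of the group, -0.82 ± 0.18 (SE, adjusted p = 0.00647, edgeR). PSAD2 (AT1G03130), a copy of the ferredoxin docking subunit, was at 1404, 1526 and 1419 CPM in the reference line and at 1010 (replicate 1), 856 (replicate 2) and 1050.4 (replicate 3) CPM in the CRISPR/Cas line, a log2 fold change of -0.58 (adjusted p = 0.011, edgeR). PSAG did not pass the test by its own count (-0.33, adjusted p = 0.0591, edgeR). Counted together with AT1G55673 the level in the CRISPR/Cas line was 73.7% of the reference line. A fit that joined this pair, and also PSAE1 with AT4G28755, gave 35 genes that fell, a way of counting chosen after the data were seen.

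For photosystem II, PSBO1 (AT5G66570), the main protein that stabilises the manganese cluster, was at 8591, 9324 and 8953 CPM in the reference libraries and at 5744, 5445 and 6123 CPM in the CRISPR/Cas libraries. Its log2 fold change was -0.63 ± 0.14 (SE, adjusted p = 0.00521, edgeR). PSBS (AT1G44575), the sensor of lumen acidity that triggers the dissipation of excess light as heat, had 1071, 1066 and 1162 CPM against 815, 916 and 926 CPM. The CRISPR/Cas values were all lower, with a log2 fold change of -0.31 that did not pass the test (adjusted p = 0.204, edgeR).

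Of the 41 genes, 21 fell and 0 rose in the GLDT::NAC052 line, where 17.3% of all tested genes fell and 17% rose. The median log2 fold change was -0.39. The falls covered 8 of 11 PSB, 7 of 14 LHCB, 5 of 12 PSA and 1 of 4 LHCA genes. In 35 of the 41 genes all 3 libraries lay below the reference libraries, against 24% of all tested genes. Fitting both GLDT lines on replicates 1 and 2 alone, an alternative chosen after the data were seen, gave 26 genes that fell, among them all 21, with a median of -0.26. Leaving out replicate 3 of the GLDT::NAC052 line alone gave 9 genes, and leaving out reference replicate 2 or 3 gave 11 each.

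LHCB2.3 had 957, 909 and 528 CPM in the GLDT::NAC052 line, a log2 fold change of -1.18 ± 0.24 against the reference line (SE, adjusted p = 0.00208, edgeR). It was the gene of the set below 0.5-fold here, a size reached by 2.85% of all tested genes, and stood at -0.94 on replicates 1 and 2. PSBO2 (AT3G50820), the minor copy of the manganese-stabilising protein, was at 2008, 2066 and 2091 CPM in the reference line and at 1063, 1326 and 745 CPM in the GLDT::NAC052 line. That is a log2 fold change of -0.98 ± 0.20 (SE, adjusted p = 0.00259, edgeR). PSBS, at 644, 733 and 458 CPM, changed by -0.85 ± 0.17 (SE, adjusted p = 0.00234, edgeR). Without GLDT::NAC052 replicate 3 the log2 fold changes were -0.77 for PSBO2 and -0.66 for PSBS, and both passed the test. These 3 genes were lower in every GLDT::NAC052 library than in any reference library. LHCB1.3 was at 29146, 24951 and 24963 CPM, overlapping the reference range (log2 fold change 0.06, adjusted p = 0.759, edgeR).

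LHCA4 had 10157, 9989 and 7794 CPM in the GLDT::NAC052 line and missed the threshold (log2 fold change -0.39, adjusted p = 0.0582, edgeR), as did PSAL with 5696, 5393 and 4744 CPM (-0.31, adjusted p = 0.0597, edgeR). PSBO1, with 7320 (replicate 1), 7563 (replicate 2) and 5778 (replicate 3) CPM, fell by 0.38 on the log2 scale (adjusted p = 0.0443, edgeR), a call lost without replicate 3 of the line (-0.26, adjusted p = 0.179, edgeR). PSAH2 (AT1G52230), a copy of the subunit to which mobile antenna binds, changed by -0.70 (adjusted p = 0.00131, edgeR), and by -0.58 without that replicate (adjusted p = 0.00723, edgeR).

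**Figure D3:**
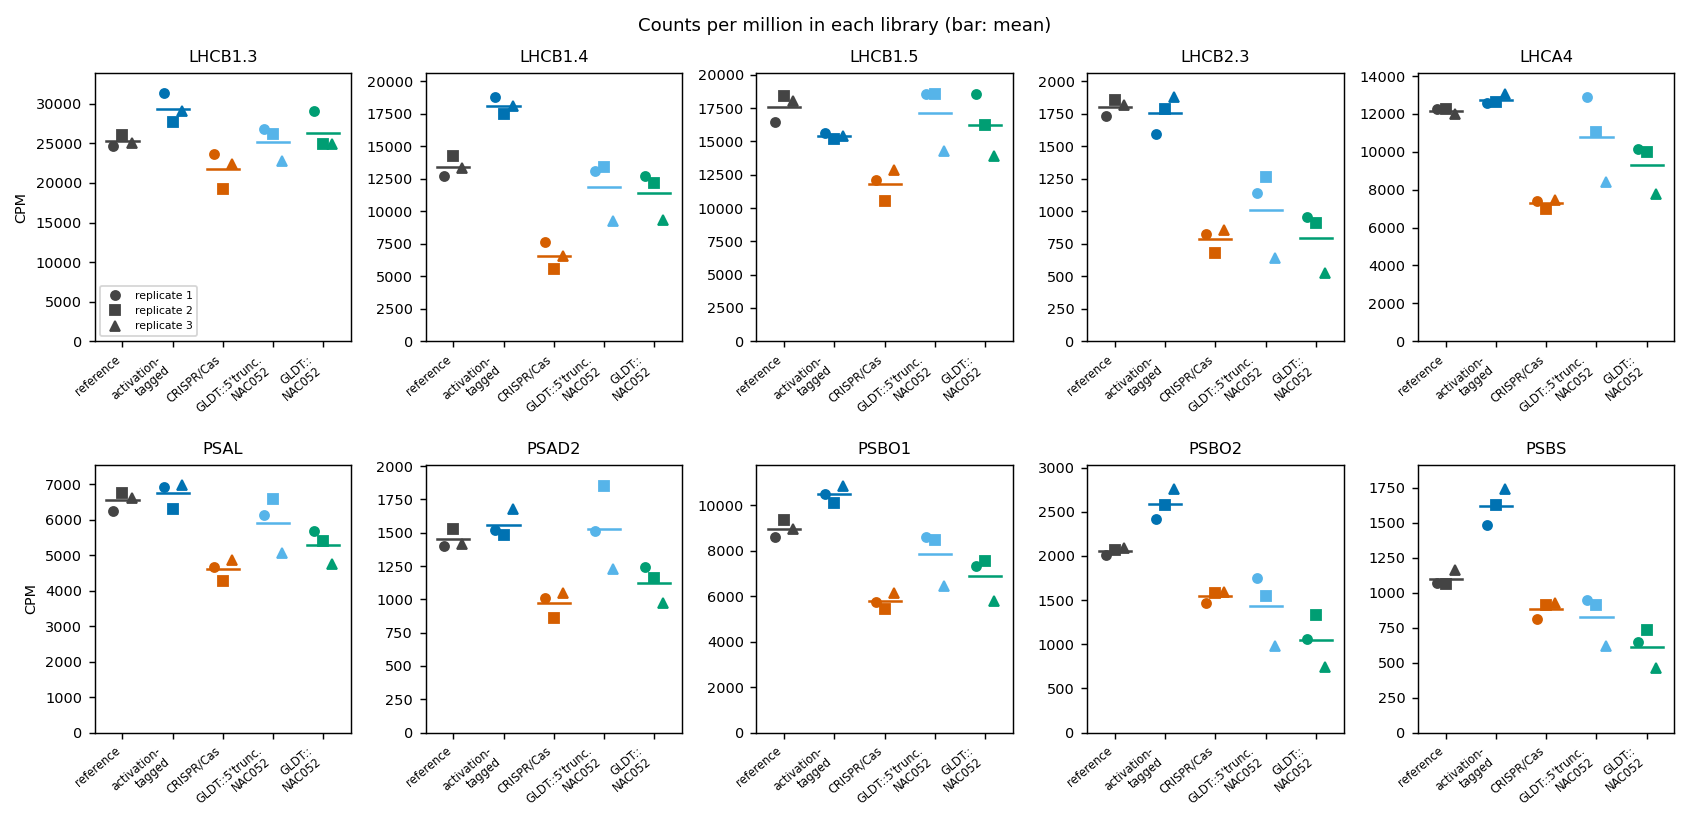
CPM of 10 genes (y axis, one panel a gene, each from 0) in the 3 libraries of the 5 lines. Points are libraries and bars are means; LHCB1.4 is lowest in the CRISPR/Cas line, whereas PSBS and PSBO2 are lowest in the GLDT::NAC052 line.

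In the GLDT::5'truncatedNAC052 line 1 gene, LHCB1.2, fell and 0 rose, where 3.03% of all tested genes fell and 2.8% rose. Its log2 fold change was -0.52 ± 0.13 (SE, adjusted p = 0.0377, edgeR). This call was lost in the fit without a low-count filter, in the fit of the 6 libraries compared, and without any 1 of the reference replicates or of replicates 1 and 3 of the line, that is in 5 of 6 fits that left out a library. Unadjusted, 8 genes had p under 0.05. The median over the 41 genes was -0.19 with 40 negative values, and 16 genes had all 3 libraries below the reference line, against 12.9% of all tested genes. Without replicate 3 of this line the median was -0.08. LHCB2.3 had 1138, 1260.3 and 639 CPM, all below the reference line, and missed the threshold (log2 fold change -0.83 ± 0.24, SE, adjusted p = 0.053, edgeR). On replicates 1 and 2 of both GLDT lines it passed, at -0.59. PSAD2, at 1512, 1849 and 1228 CPM, had the highest value of the set (log2 fold change 0.08, adjusted p = 0.805, edgeR).

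In the activation-tagged line 0 of the 41 genes rose and 0 fell, where 1.9% of all tested genes rose and 1.74% fell (edgeR). Unadjusted, 10 genes had p under 0.05. DESeq2 called 3 genes higher, and edgeR called 10 higher when only the 6 libraries of lane 1 were fitted. The median log2 fold change was 0.19 with 35 positive values, and in 28 genes all 3 libraries lay above the reference line, against 14.9% of all tested genes. PSBS was at 1483, 1631 and 1744 CPM, above every reference library (log2 fold change 0.56 ± 0.17, SE, adjusted p = 0.0943, edgeR). LHCB1.4, with 18775, 17491 and 18090.1 CPM, was also above every reference library (0.43 ± 0.17, SE, adjusted p = 0.184, edgeR). LHCB1.5, with 15649, 15157 and 15402 CPM, lay below them and had the lowest value of the set (-0.19, adjusted p = 0.508, edgeR).

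The lines of lane 8 were also compared with each other. Against the GLDT::5'truncatedNAC052 line, 24 of the 41 genes were lower and 0 higher in the CRISPR/Cas line, with 15.4% of all tested genes lower and 13.2% higher. They were 7 LHCB, 4 LHCA, 9 PSA and 4 PSB genes, with a median log2 difference of -0.36 over all 41. The number was 35, including all 24, on replicates 1 and 2 of the GLDT lines, 6 without CRISPR/Cas replicate 2, 7 without GLDT::5'truncatedNAC052 replicate 1 and 5 in the fit of the 6 libraries compared. Against the GLDT::NAC052 line, 6 genes were lower and 2 higher in the CRISPR/Cas line, with 20.9% of all tested genes lower and 20.5% higher. The lower genes were LHCB1.4, PSAN, LHCB1.5, PSAF, LHCA2 and PSAE2. LHCB1.4 differed most, by -0.79 ± 0.17 (SE, adjusted p = 0.00208, edgeR). The higher genes were PSBO2 (0.57, adjusted p = 0.0376, edgeR) and PSBS (0.53, adjusted p = 0.0239, edgeR). Without replicate 3 of both GLDT lines 27 genes were lower, among them all 6, and without that of the GLDT::NAC052 line alone 18. Without CRISPR/Cas replicate 2 or GLDT::NAC052 replicate 1 a single gene was lower. Both higher genes kept their call without replicate 3 of both GLDT lines. Both lost it without CRISPR/Cas replicate 2 or 3, without GLDT::NAC052 replicate 1 or 3, and in the fit of the 6 libraries compared, and 1 of them lost it without CRISPR/Cas replicate 1. Between the GLDT lines, 1 gene, PSAH2, was lower with the whole than with the shortened reading frame (-0.44, adjusted p = 0.0497, edgeR), and 0 were higher. Of all tested genes 3.78% were lower and 4.77% higher in that comparison. On replicates 1 and 2 alone 7 genes were lower, PSAH2 among them, and without GLDT::5'truncatedNAC052 replicate 3 there were 11. The call was lost in the other 5 fits that left out a library, with median-of-ratios factors, without the filter, in the fit of the 6 libraries and with a replicate block.

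Within gene families the shares of the copies overlapped the reference line in some lines and not in others. PSAD shares overlapped it in GLDT::NAC052 and activation-tagged plants, but not in CRISPR/Cas plants or with the shortened reading frame. LHCB4.1 and LHCB4.2 shares overlapped it in activation-tagged plants and with the shortened reading frame, but not in GLDT::NAC052 or CRISPR/Cas plants. PSAE and PSBQ shares overlapped it in both GLDT lines alone. LHCB1.4 held 18.1% ± 0.503 (SD, n = 3) of the LHCB1 counts in the reference line, 11.9% ± 0.792 (SD, n = 3) in the CRISPR/Cas line and 21.6% ± 0.306 (SD, n = 3) in the activation-tagged line. Neither line overlapped the reference line (two-sided exact permutation p = 0.1, the smallest that 3 libraries against 3 allow, for each). LHCB1.3 had 34.1% in the reference line, 39.4% in the CRISPR/Cas line and 40.1% in the GLDT::NAC052 line. LHCB1.1, at 12.5% in the reference line, was above it in the CRISPR/Cas line (14.2%) and below it in the GLDT::NAC052 line (8.88%), again without overlap. LHCB1.2, next to it on chromosome 1, went from 11.5% to 13.1% and 9.24% in the same lines. Over replicates 1 and 2 of the GLDT::NAC052 line the means were 38.8% (LHCB1.3), 9.11% (LHCB1.1) and 9.22% (LHCB1.2), still without overlap. The neighbours LHCB1.4 and LHCB1.5, on opposite strands of chromosome 2, parted in the activation-tagged line, where LHCB1.5 had 18.3% after 23.8% in the reference line.

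LHCB2.3 had 14.9% of the LHCB2 counts in the reference line, 10.4% in the CRISPR/Cas line, 9.71% with the shortened and 9.34% with the whole NAC052 reading frame. All 9 libraries of these lines were below the reference libraries. The 3 copies can be told apart by a stretch of coding bases, shown with capitals for bases that differ from LHCB2.1 (chr2:1824242-1824271, minus strand, for LHCB2.1, chr2:1800240-1800269, minus strand, for LHCB2.2, and chr3:10256062-10256091, plus strand, for LHCB2.3, TAIR10.1).
LHCB2.1: aacgaactcctccgcaaggttggtgtatcc
LHCB2.2: aGcgaCctcAtccAAaaggtGggCgtCtTG
LHCB2.3: aacgaTctcctccgcaaAAtCggAgCCtcc
In these 30 bases, also picked for their many differences, LHCB2.3 differs from LHCB2.1 at 7 and LHCB2.2 at 10. LHCB2.2 held 44.1% of the LHCB2 counts in the CRISPR/Cas line after 41.1% in the reference line.

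The share of PSBO2 was above the reference libraries in the CRISPR/Cas line and below them in both GLDT lines. It held 18.7% ± 0.461 (SD, n = 3) of the PSBO counts in the reference line, 21.2% ± 1.15 (SD, n = 3) in the CRISPR/Cas line but 13.01% ± 1.77 (SD, n = 3) in GLDT::NAC052 plants. Each differed from the reference line without overlap (two-sided exact permutation p = 0.1, the smallest possible, for each). With the shortened reading frame the mean share of PSBO2 was 15.2%, also below every reference library. The PSBO copies have 83.6% identical coding bases, and in the stretch below capitals mark the bases of PSBO2 that differ from PSBO1 (chr5:26568852-26568881, plus strand, and chr3:18892177-18892206, minus strand, TAIR10.1).
PSBO1: tcttttgggctcgaaacttcctcggctcgc
PSBO2: tcCtttgggTtAgaCTcttcACAAgctAgG
This stretch, with 11 differences in 30 bases, was picked for its many differences and is not typical of the reading frame. With no shared 150-base window, reads of these copies are separable wherever a whole read matched without error. In the activation-tagged line it was PSBQ1 (AT4G21280), a copy of another extrinsic protein of the oxygen-evolving complex, that stood apart, with 39.04% of the PSBQ counts after 32.2% in the reference line. PSAH2 had 50.4% of the PSAH counts in the reference line, 47.5% with the shortened reading frame and 44.02% in the GLDT::NAC052 line. Over replicates 1 and 2 of that line PSAH2 had 44.5% and PSBO2 13.8% of their family's counts, both still below the reference libraries.

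**Figure D4:**
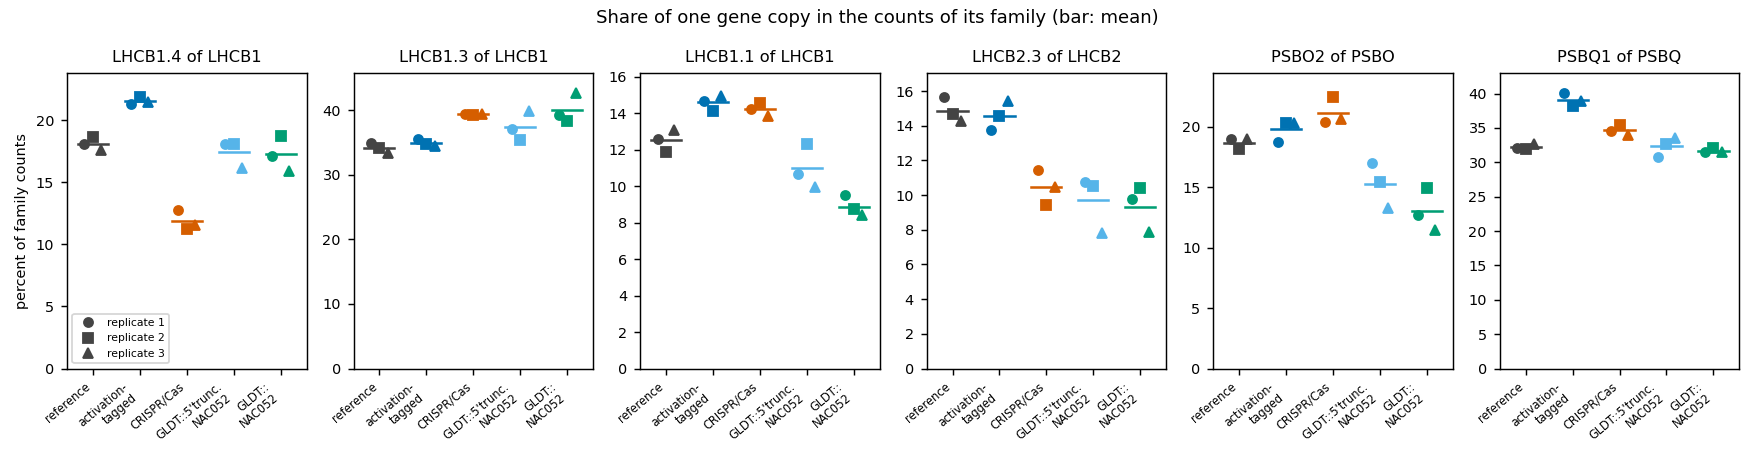
Share of a family's counts (percent, y axis) held by LHCB1.4, LHCB1.3, LHCB1.1, LHCB2.3, PSBO2 and PSBQ1 in the 5 lines; points are libraries and bars are means of 3. LHCB1.4 is at 11.9% in the CRISPR/Cas line and 21.6% in the activation-tagged line, and PSBO2 at 13.01% in the GLDT::NAC052 line.

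The promoters were read from 250 bases before to 50 bases after each annotated gene start (TAIR10.1) and searched on both strands for short motifs known from light-regulated plant genes. The letters GATAAG (the I-box) were in 18 of the 41 promoters and in 15.1% of 19566 promoters of tested genes, and among the groups in 8 of 12 PSA genes. The letters CACGTG (the G-box) were in 15 of 41 and in 8.84% of all, including 7 of 11 PSB genes. CCAATC was in 15 of 41 and in 12.8% of all, including 8 of 14 LHCB and 3 of 4 LHCA genes but 1 of 12 PSA genes. AAAATCT, letters contained in a longer site bound by the clock factor CCA1 in an LHCB promoter, were in 15 of 41 and in 18.7% of all, with 0 of 11 PSB genes. These are counts of the letters and not of the whole site. The evening element AAAATATCT was in 0 of 41 and in 3.102% of all. A promoter from each gene group is shown with 1 of these motifs in capitals, the I-box for PSA, the G-box for PSB and CCAATC for both antenna groups: PSAF, a plastocyanin docking subunit (chr1:11216190-11216219, minus strand), PSBQ1 (chr4:11334257-11334286, plus strand), LHCA4 (chr3:17495064-17495093, minus strand) and LHCB1.3 (chr1:10477782-10477811, plus strand).
PSAF: aaataaataaaaGATAAGtcgtgtgtagtc
PSBQ1: aaataatcttgcCACGTGgctttaaggcgg
LHCA4: atcttattccgaCCAATCtcaaacaacatt
LHCB1.3: gtgggtgtttcgCCAATCcatgaaacgcac
The responses of genes with and without these letters were then set side by side, with no test. In the CRISPR/Cas line the median log2 fold change was -0.59 for the 18 genes with GATAAG and -0.57 for the 23 without, -0.55 with CACGTG and -0.60 without, and -0.61 with AAAATCT and -0.57 without. The 15 genes with CCAATC had a median of -0.65 against -0.55 for the other 26.

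A list of 77 other genes of the photosynthetic apparatus, of which 75 were tested, was set beside the photosystem genes, with no test between the lists. In the CRISPR/Cas line 12 of the 75 fell and 5 rose, where 12.8% of all tested genes fell and 11% rose, with a median log2 fold change of -0.18. With library totals alone 6 fell and 10 rose with a median of 0.00, in the fit of the 6 libraries compared 27 fell, and without a single library 5 to 9 fell. Those that fell included HCF136 (-0.74, adjusted p = 0.01, edgeR), an assembly factor of photosystem II, PETE2 (-0.63), a plastocyanin, and CYP38 (-0.52), another assembly factor. Of 14 genes of chlorophyll synthesis 2 fell there. In the GLDT::NAC052 line 42 of the 75 fell and 10 rose, beside 17.3% and 17% of all tested genes, with a median of -0.39 as in the 41 genes, and those that fell included 10 of 14 genes of chlorophyll synthesis (median -0.63) and 13 of 16 genes of import, assembly and state transitions. On replicates 1 and 2 of both GLDT lines 42 fell as well, and without GLDT::NAC052 replicate 3 alone 27.

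Named by the size of their change, PSB28, an assembly factor of photosystem II, was at 91.4, 98.2 and 100.2 CPM in the reference line, at 89.6, 97.1 and 90.1 CPM in the CRISPR/Cas line and at 38.1, 45.4 and 29.3 CPM in the GLDT::NAC052 line. Its log2 fold change in the GLDT::NAC052 line was -1.36 ± 0.17 (SE, adjusted p = 9.4e-05, edgeR). PORC, which reduces protochlorophyllide in the light, had 190.3, 208 and 208 CPM in the reference line, 205, 227 and 221 CPM in the CRISPR/Cas line and 86.7, 102 and 65.0 CPM in the GLDT::NAC052 line. Plants of the CRISPR/Cas line were higher than the latter by 1.37 ± 0.16 (SE, adjusted p = 1.8e-05, edgeR) on the log2 scale. DVR and CHLI2, further enzymes of chlorophyll synthesis, and LHCA6, a rare antenna protein that joins photosystem I to the NDH complex, changed by -1.12, -1.10 and -1.39 in the GLDT::NAC052 line. PIF3, a transcription factor that restrains greening in the dark, rose by 1.03, and NAC092, a regulator of leaf senescence, by 1.74 in that line. Without replicate 3 of the line the values were -1.20 (PSB28), -0.93 (DVR), -0.89 (CHLI2), -1.13 (LHCA6), 0.89 (PIF3) and 1.61 (NAC092), and all but NAC092 (adjusted p = 0.0598, edgeR) passed the test. The difference in PORC was then 1.1965. Set against the GLDT::5'truncatedNAC052 line, PORC was lower in the GLDT::NAC052 line (-0.64, adjusted p = 0.0249, edgeR), a call lost without replicate 3 of the latter. PSB28 (-0.44), DVR (-0.30), CHLI2 (-0.40), LHCA6 (-0.67), PIF3 (0.27) and NAC092 (0.03) did not pass the test between these lines. On replicates 1 and 2 of both lines PORC, PSB28 and LHCA6 passed.

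Set directly against the GLDT::NAC052 line, the CRISPR/Cas line had 25 of the 75 listed genes higher and 9 lower, and of the 41 photosystem and antenna genes 2 were higher and 6 lower, beside 20.5% higher and 20.9% lower over all tested genes. Higher genes included 8 of 16 for import, assembly and state transitions and 6 of 14 for chlorophyll synthesis, with 0 lower in both groups. These counts are from the main fit, and those of the list without replicate 3 are not given here. In the activation-tagged line 12 of the 75 rose and 0 fell, beside 1.9% and 1.74% of all tested genes. Without a single library 6 to 8 rose, and in the fit of the 6 libraries compared 25. Of the 12, 4 genes, GUN4 (0.92), CRD1 (0.64), HEMA1 (0.63) and CAO (0.58), act in chlorophyll synthesis or its control. In the GLDT::5'truncatedNAC052 line 8 fell and 4 rose, beside 3.03% and 2.8% of all tested genes. Without its replicate 3 or reference replicate 3 a single gene fell, and in the fit of the 6 libraries compared 0.

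**Figure D5:**
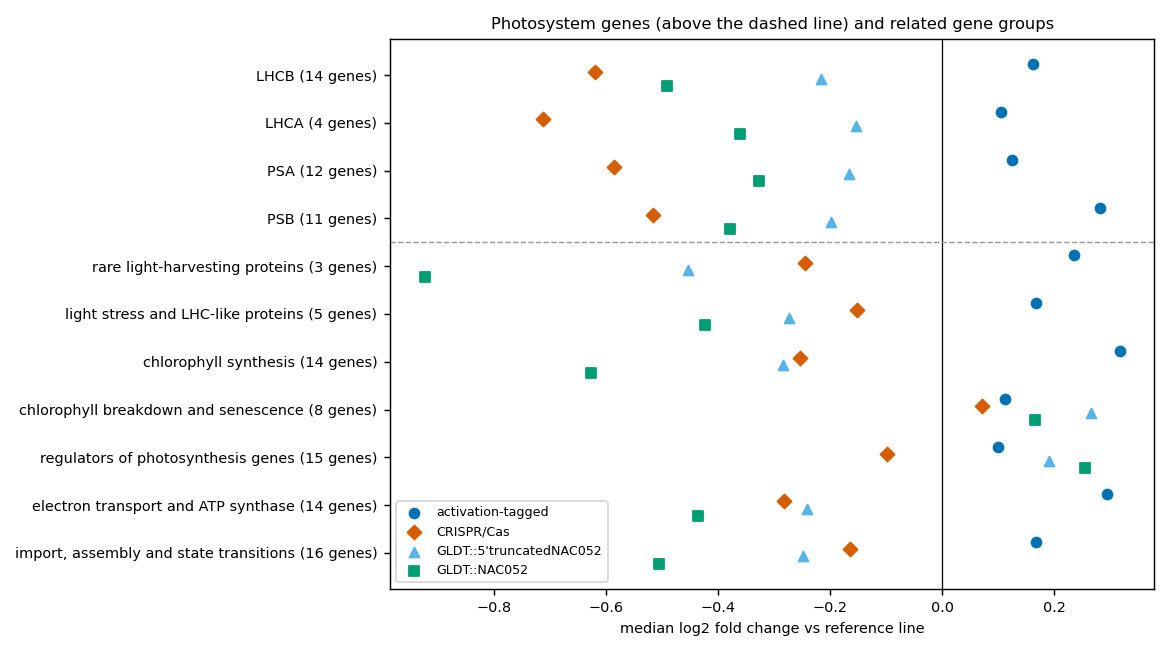
Median log2 fold change against the reference line (x axis) of the photosystem gene groups (above the dashed line) and of the groups of the related list (below it), with the number of genes in each. Symbols mark the 4 lines, and CRISPR/Cas is lowest in the LHCB, LHCA, PSA and PSB groups whereas GLDT::NAC052 is lowest in chlorophyll synthesis at -0.63.

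Clock genes and cell type markers were also compared between the lines. LHY and CCA1, morning transcription factors of the circadian clock, were at 1.25, 1.74 and 2.34 CPM (LHY) and at 6.68, 7.41 and 8.56 CPM (CCA1) in the reference line. LHY was higher in the activation-tagged line (log2 fold change 1.496 ± 0.25, SE, adjusted p = 0.00771, edgeR) and in the CRISPR/Cas line (1.49 ± 0.25, SE, adjusted p = 0.00125, edgeR), and CCA1 rose by 1.01 in the activation-tagged line, by 0.68 in the CRISPR/Cas line and by 0.74 in the GLDT::NAC052 line. The part of the clock or the hour of harvest in the results was not tested. The summed level of 4 mesophyll markers, which are themselves genes of carbon fixation, was 31935 to 36179 CPM in the reference line, 35892 to 41409.5 CPM in the activation-tagged line, 23816 to 26422 CPM in the CRISPR/Cas line, 22055 to 31752 CPM with the shortened and 18129 to 25236 CPM with the whole reading frame. Of these 4 markers, 2 fell in the CRISPR/Cas line and 4 in GLDT::NAC052 plants, where 12.8% and 17.3% of all tested genes fell. All 3 xylem markers fell in the CRISPR/Cas line, from a sum of 45.2 to 51.2 CPM to one of 9.43 to 17.0 CPM, and 4 guard cell markers summed to 56.3 to 66.8 CPM there against 85.3 to 96.4 CPM. In the activation-tagged line the guard cell markers were as low, at 56.8 to 63.4 CPM, and FAMA, a regulator of guard cell fate, fell by 0.65 (adjusted p = 0.0137, edgeR). It was the 1 of the 4 that fell there, beside 1.74% of all tested genes. KAT1 weighed most in the sum, with means of 47.3 CPM in the reference and 28.8 CPM in the activation-tagged line, against 5.53 and 5.23 CPM for HT1. The guard cell sum was 61.8 to 72.5 CPM with the shortened and 64.3 to 88.8 CPM with the whole reading frame. The bundle sheath marker SULTR2.2, a sulfate transporter, changed by -1.45 in GLDT::NAC052 plants (adjusted p = 0.000309, edgeR). There SCR had a mean of 22.5 CPM against 19.5 CPM in the reference line, and MYB76 2.94 against 2.98 CPM. These 3 bundle sheath markers summed to 29.01 to 30.2 CPM against 30.7 to 36.4 CPM. In the CRISPR/Cas line 1 of the 3 was higher and 0 lower, beside 11% and 12.8% of all tested genes, and their sum was 37.3 to 49.2 CPM. MYB76 went the other way there, with a mean of 1.42 CPM, and did not pass the test. The epidermis markers summed to 275 to 286 CPM in the reference line and 221 to 235 CPM in the CRISPR/Cas line. Their sum was 300 to 327 CPM in the activation-tagged line, 282 to 361 CPM with the shortened and 302 to 336 CPM with the whole reading frame. The phloem companion cell sums of every line overlapped the 602 to 771 CPM of the reference line. Markers of flowers summed to at most 2.01 CPM in any library. The part of cell composition in the photosystem values was not tested.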

How the data were processed

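Total RNA from 15 rosette samples was sequenced as stranded single-end mRNA libraries. Per the labels and the study's methods, the authors converted reads with bcl2fastq, aligned them with CLC Genomics Workbench (genome TAIR10) and deposited raw counts per gene. The table's 6 columns without a described sample were left out.

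Genes were tested if 3 or more libraries reached 10 counts, scaled to the median depth, and the sum reached 15 (19663 of 32833). One edgeR 4.0.16 quasi-likelihood model (R 4.3.3) held all 15 libraries with a term per line and TMM scaling (30% of M and 5% of A trimmed). Adjusted p is Benjamini-Hochberg over all tested genes, with a limit of 0.05; the fold limits of 2 and 0.5 follow the study. CPM used the TMM library size, and shares used library totals. Since the 41 genes hold a large share of all counts, TMM was also computed without them. The procedure was tested on simulated data. Library totals near the median of 36691617 leave counting error small for these genes, so that the spread between plants sets the precision.

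The genes and lists were chosen with earlier results of these data known. Values in every library were given for the gene with the highest CPM in each group, genes past the fold and p limits, and the highest and lowest gene of each comparison with the reference line. Gene copies were compared within families, and listed pathway genes were named past the same limits, at most 12. Other genes named, such as LHCB3, PSAN, PSBO2, PSAH2, HCF136, PETE2, CYP38 and GUN4, were chosen after their values were seen. Alternatives were other scalings, DESeq2 1.42.0, limma 3.58.1 voom, no filter, fits of the 6 libraries compared, a replicate block and leaving out libraries. Fitting both GLDT lines on replicates 1 and 2, means over these replicates and counting overlapping genes together were chosen after the data were seen. Sequences and coordinates are from RefSeq's TAIR10.1.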

Additional observations from a re-analysis of the deposited data

How the results depend on the processing

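The count of 34 genes lower in the CRISPR/Cas line was 32 to 38 under the other scalings, tests, filters and the fit of 6 libraries, and 25 to 33 with a library left out. No photosystem or antenna gene called in the main fit was called in the opposite direction under any alternative. This statement does not cover the related list, the clock genes or the cell type markers. With scaling by library totals alone the median of all genes, within 0.01 of 0 in the main scaling, was 0.19 (CRISPR/Cas), -0.11 (activation-tagged) and 0.11 (GLDT::NAC052). The photosystem medians were then -0.39 (CRISPR/Cas) and 0.087 (activation-tagged). It gave 2 genes lower in the GLDT::5'truncatedNAC052 line, 1 higher for CRISPR/Cas against GLDT::5'truncatedNAC052, 2 lower between the GLDT lines, and 4 higher for CRISPR/Cas against GLDT::NAC052. DESeq2 called 3 genes higher in the activation-tagged line, 3 lower in the GLDT::5'truncatedNAC052 line, 2 lower between the GLDT lines and 16 lower for CRISPR/Cas against GLDT::NAC052, and limma voom 2 lower in the GLDT::5'truncatedNAC052 line. For GLDT::NAC052 against the reference line, DESeq2 called 31 genes lower and limma voom 28, each including all 21 of the main fit. The other scalings and the fit without a filter gave 17 to 21 there. Fits of the 6 libraries compared gave 10 higher in the activation-tagged line, 0 lower in the GLDT::5'truncatedNAC052 line, 11 lower in the GLDT::NAC052 line, 5 lower for CRISPR/Cas against GLDT::5'truncatedNAC052, 0 between the GLDT lines, and 2 lower and 0 higher for CRISPR/Cas against GLDT::NAC052. Without a filter, 0 were lower in the GLDT::5'truncatedNAC052 line and 0 between the GLDT lines, and with median-of-ratios factors 0 between the GLDT lines. On replicates 1 and 2 of the GLDT lines the lower counts were 2 (GLDT::5'truncatedNAC052 against the reference line), 7 (between the GLDT lines) and 27 (CRISPR/Cas against GLDT::NAC052). Shares over the TMM library size differed from the reference line by 2.96 (activation-tagged), -8.12 (CRISPR/Cas) and -5.02 (GLDT::NAC052) percentage points. The cause of these shifts was not tested.

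With 1 library left out, the lower counts ran from 0 to 2 (GLDT::5'truncatedNAC052), 9 to 22 (GLDT::NAC052), 6 to 33 (CRISPR/Cas against GLDT::5'truncatedNAC052), 0 to 11 (between the GLDT lines) and 1 to 18 with 0 to 2 higher (CRISPR/Cas against GLDT::NAC052). Median log2 fold changes ran from 0.16 to 0.21 (activation-tagged), -0.63 to -0.53 (CRISPR/Cas), -0.27 to -0.08 (GLDT::5'truncatedNAC052), -0.45 to -0.26 (GLDT::NAC052), -0.49 to -0.30 (CRISPR/Cas against GLDT::5'truncatedNAC052), -0.32 to -0.08 (between the GLDT lines) and -0.31 to -0.14 (CRISPR/Cas against GLDT::NAC052). Differences in share ran from 0.81 to 1.37, -6.00 to -5.16, -2.64 to -0.49 and -4.22 to -2.09 points in the same order of lines.

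Same-numbered replicates were not shown to be paired, since the correlations of their deviations reached down to -0.087, in CRISPR/Cas against the reference line. Between the GLDT lines they ran from 0.093 to 0.439, with the highest for replicate 3. Against the reference line a replicate block gave 34 lower genes for CRISPR/Cas, 21 for GLDT::NAC052 and 2 for GLDT::5'truncatedNAC052. It gave 21 for CRISPR/Cas against GLDT::5'truncatedNAC052, 0 between the GLDT lines, and 5 lower and 2 higher for CRISPR/Cas against GLDT::NAC052.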
